A study of Mus musculus with 24 samples.

Results

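The regions described here are Cdx2-bound regions that lay close together on the genome, away from gene starts, in mouse colon organoids. They were selected on the peak lists themselves. Peaks of the 12 Cdx2 lists were merged, and 9949 of the 61454 merged regions were called in at least 6 libraries and had their summit more than 3 kb from any annotated transcript start. Regions separated by at most 12.5 kb were then joined into chains. The 786 regions in chains of at least 3, 7.90% of the 9949, are called clustered regions below. They formed 232 chains. The other regions that passed the same filters were 1606 regions in pairs and 7557 single regions with no such neighbour, and the single regions serve as the comparison. The number of libraries with a call and the spacing chose the clustered regions, so these are given only as a description. The calls in 12 libraries stood at exactly 6 for 2463 of the 9949 regions, and 2784 further regions far from a start were called in exactly 5. The largest gap inside a chain was 12491 bp and the smallest gap left outside was 12508 bp.

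The organoids are cultures of colon epithelium, derived from the proximal or distal end of the colon in 3 mice. They had grown for 4 months in medium with Wnt3a, EGF, Noggin and R-spondin, called WENR-plus. All 4 groups carried 1 Cre-inducible BrafV600E allele and 1 tdTomato reporter allele, and the labels name no Cre for these libraries. Proximal WENR-plus and distal WENR-plus organoids stayed in that medium, while proximal WENR-minus and distal WENR-minus organoids had 2 days of it after plating and then 3 days without the factors. Each group had 3 Cdx2 libraries, and each list was called against the input of its own library. The study's methods give young adult female mice for the organoids. In the following, a line is the organoid culture of 1 site and 1 replicate number, in both media.

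Cdx2 is an intestinal transcription factor of the homeobox class. It binds AT-rich words of the form TTTATGG, much of it far from promoters, and is known for keeping intestinal identity and enterocyte differentiation genes active. Long stretches in which bound regions follow each other closely resemble what is called a stitched or super-enhancer when they also carry strong Mediator or acetylated histone signal. The files used here hold no such signal, so the chains are named by the rule that found them and not as enhancers.

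The following 101-base windows centre on the median summit of a region and were read from the plus strand of GRCm38, the assembly of mm10. They show the extremes of the longest chains and all regions of a chain just past the 3′ end of Hnf4a, a chain chosen for display after its values were seen. A Cdx2 motif was the word TTTATGG, the word TTTATGA, the word TTTATTG or the word TTTATTA on either strand, lying wholly within 50 bp of the summit, and is in capitals.
Strongest region of the chain with 10 regions on chromosome 10, chr10:98695185-98695285: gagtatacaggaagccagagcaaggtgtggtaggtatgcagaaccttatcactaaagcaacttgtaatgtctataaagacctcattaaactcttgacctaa
Weakest region of the same chain, chr10:98667894-98667994: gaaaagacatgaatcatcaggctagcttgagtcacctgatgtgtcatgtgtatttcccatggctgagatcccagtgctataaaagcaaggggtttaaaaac
Strongest region of the chain with 10 regions on chromosome X, chrX:123045737-123045837: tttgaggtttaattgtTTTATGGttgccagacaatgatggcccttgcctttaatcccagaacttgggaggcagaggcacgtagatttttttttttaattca
Strongest region of the chain with 6 regions on chromosome 12, chr12:32460787-32460887: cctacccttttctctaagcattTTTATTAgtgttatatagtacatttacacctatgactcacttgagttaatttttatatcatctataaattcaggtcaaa
Hnf4a chain, region 1, chr2:163574502-163574602: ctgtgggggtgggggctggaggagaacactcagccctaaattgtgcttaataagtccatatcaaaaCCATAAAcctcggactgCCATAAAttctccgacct
Hnf4a chain, region 2, chr2:163580247-163580347: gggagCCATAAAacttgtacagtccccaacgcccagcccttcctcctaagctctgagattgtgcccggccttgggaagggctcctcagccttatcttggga
Hnf4a chain, region 3, chr2:163584255-163584355: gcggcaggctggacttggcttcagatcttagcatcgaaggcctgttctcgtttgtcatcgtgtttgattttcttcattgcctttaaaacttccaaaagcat
Hnf4a chain, region 4, chr2:163593788-163593888: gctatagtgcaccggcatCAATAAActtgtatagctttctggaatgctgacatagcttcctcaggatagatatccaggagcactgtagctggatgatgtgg
The strongest region of the longest chain had none of these words, and a region of the Hnf4a chain had 2 of them. Over all 9949 regions, 72.2% held at least 1 motif within 50 bp of the median summit. The windows 1000 bp to either side of these summits held one in 10.7%.

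Most chains were short. There were 174 chains of 3 regions, 38 of 4, 16 of 5, 2 of 6 and 2 of 10. A chain spanned a median of 13.6 kb, from 1.17 to 41.6 kb, and together the chains covered 3.16 Mb. The peaks themselves filled a median of 19.03% of the span. The 554 gaps inside chains had a median of 3760.5 bp, with quartiles of 1517 and 7535 bp. Fold percentile, the rank of a peak's fold over input among all peaks of its own list, is used as the measure of strength because the fold is made against each library's own input. Within a chain the strongest and the weakest region lay a median of 31.5 percentile points apart.

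**Figure D1:**
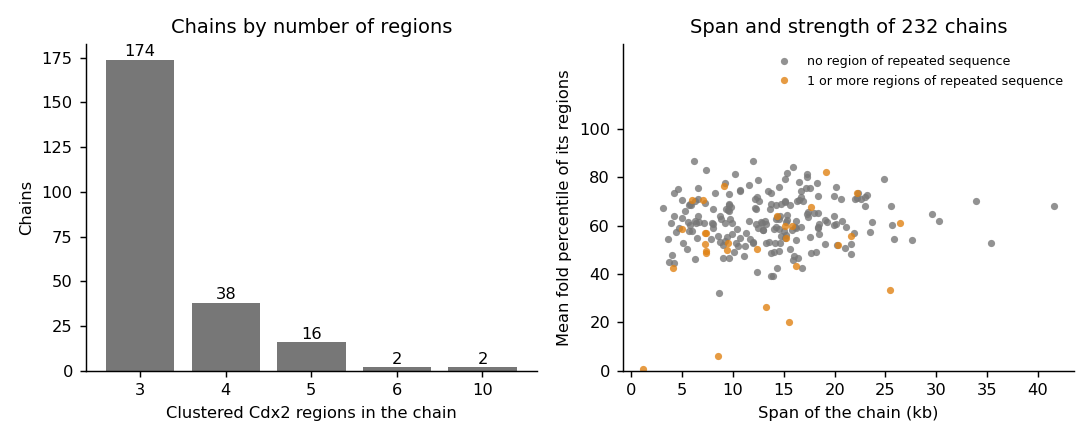
Left, number of chains (bars) by the number of clustered Cdx2 regions in them. Right, the span of each of the 232 chains in kb against the mean fold percentile of its regions, 0 to 100, with chains holding regions of repeated sequence in orange. Of the 232 chains, 174 had 3 regions, and the chains of lowest percentile held repeated sequence.

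The chains with the most regions did not all resemble each other. The first, chr10:98654036-98695617, had 10 regions in 41.6 kb and received 103 of 120 possible calls. Its summits lay in 1 non-coding gene and overlapped no protein-coding gene, and the nearest protein-coding start to its centre was that of Atp2b1, a plasma membrane calcium pump, 239.6 kb away. The proximal WENR-plus libraries called 10, 9 and 8 of its regions and the proximal WENR-minus libraries 10, 6 and 7. The distal WENR-plus libraries called 8, 9 and 7 and the distal WENR-minus libraries 10, 10 and 9. The 2 sites overlapped, with 50 calls in proximal and 53 in distal organoids. Motifs were found in 6 of its 10 regions, and 5 regions were called in all 12 libraries. Mean fold percentiles ran from 34.4 to 86.6 along the chain.

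The other chain of 10 regions, chrX:123045583-123072052, was made of repeated sequence throughout. Every one of its 10 summits lay in sequence whose 31-base words occurred more than once in the genome, so reads from other copies could have been placed there. It lay 29.1 kb from the start of the predicted gene Gm17521 and received 97 of 120 calls. The chain of 5 regions on chromosome Y overlapping the predicted gene Gm47283 had 3 such regions and the low mean fold percentile of 5.94. It held all 5 chromosome Y regions that passed the filters. The mice were female, per the study's methods, and the source of the chromosome Y calls was not tested. In all, 71 of the 786 clustered regions (9.0%) were of repeated sequence, in 29 chains, 13 of which held nothing else. The share was close to the 8.25% of all 9949 regions and the 8.47% of single regions.

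The remaining large chains lay in single-copy sequence. The chain of 6 regions near Zfp608, which encodes a zinc finger protein, received 57 of 72 calls and lay 40.7 kb from its start. The chain of 6 regions at chr12:32444833-32465815, 76.6 kb from Ccdc71l, received 47 of 72. Its proximal WENR-plus libraries called 6, 6 and 5 regions and its proximal WENR-minus libraries 6, 4 and 6. Its distal WENR-plus libraries called 0, 4 and 0 and its distal WENR-minus libraries 4, 2 and 4, so the sites overlapped only at 4 calls. Further chains of 5 regions lay 16.5 kb from Tekt3, a tektin of cilia and sperm flagella, with 54 of 60 calls, and 323.6 kb from Klf6, a Krüppel-like transcription factor, with 51. Chains of 5 regions also lay 18.3 kb from Gtf3a, transcription factor IIIA, with 50 calls, and 31.7 kb from Cypt1 with 49. The last of the 10 largest chains overlapped Slc8a1, a sodium-calcium exchanger, with 48 calls and 10 motifs in 4 of its 5 regions. A start of Slc8a1 lay 4.34 kb from the centre of this 22.5 kb chain, and 1 start-proximal Cdx2 region lay inside its span.

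Clustered regions held a Cdx2 motif less often than single regions. Over the 6 lines, 51.8% ± 3.05 (SD, n = 6) of the clustered regions called in a library had a motif within 50 bp of that library's summit, against 62.9% ± 4.43 of the single regions. The difference was -11.1 percentage points (SD 2.39) and ran from -14.0 to -8.15. It was negative in 6 of 6 lines, with p = 0.0312 in a two-sided exact sign-flip permutation test, the smallest p that 6 lines allow. All lines drew on the same clustered and single regions, so this p covers agreement between lines and not the sampling of regions or chains. The 6 lines came from 3 mice, so lines share mice, and the test over 6 lines treats them as separate. Averaged by replicate number, the differences were -11.4, -13.6 and -8.32 points, with p = 0.25 in the exact sign-flip test, the smallest p that 3 values allow. Leaving out the libraries of 1 replicate number gave -10.7, -9.82 and -10.5 points, each with p = 0.125 in the exact sign-flip test, the smallest p that the remaining 4 lines allow.

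The values in single libraries, which scored overlapping sets of the same regions, showed the same order throughout. Clustered regions had a motif in 55.2%, 47.7% and 53.7% of calls in the proximal WENR-plus libraries, where single regions had 66.1%, 60.6% and 61.0%. The proximal WENR-minus libraries gave 53.4%, 55.0% and 46.5% against 65.5%, 68.4% and 55.5%. In every library of either site the clustered value was the lower one. The distal WENR-plus libraries gave 55.3%, 50.5% and 52.2% against 67.1%, 63.9% and 57.3%, and the distal WENR-minus libraries 57.8%, 50.3% and 44.4% against 68.8%, 65.0% and 56.2%.

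At the median summit the share was 58.8% for clustered regions (95% Wilson interval 55.3 to 62.2), 65.0% for pairs (62.6 to 67.3) and 75.2% for single regions (74.2 to 76.1), while windows 1000 bp away held a motif in 9.29%, 10.2% and 10.98%. Within chains it did not fall steadily with length, at 61.1% in chains of 3, 49.3% in chains of 4 and 60.7% in chains of 5 or more. At least 2 motifs were found in 16.2% of clustered regions and in 36.8% of single regions. The intervals here cover counting error over regions only. The strongest region of each chain held a motif in 70.3% of the 232 chains, and the other clustered regions in 54.0%. All regions held one in 48 chains, and none did in 12.

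Base composition moved with the class. The median GC of the summit window was 38.6% in clustered and 35.6% in single regions. The motif share was nevertheless lower in clustered regions within each GC range, at 75.3% against 90.7% below 30% GC, 61.1% against 73.9% between 35% and 40%, and 36.4% against 48.6% at 45% and above. Among regions called in all 12 libraries it was 67.6% against 76.6%, and among those called in exactly 6 it was 52.5% against 75.6%. In regions between the 50th and 75th fold percentile it was 59.6% against 77.1%. In the 21 clustered regions below the 25th percentile the order was the opposite, 47.6% against 36.6%, with intervals of 28.3 to 67.6 and 26.98 to 47.4 that overlapped. Without repeated sequence the shares were 58.7% and 75.1%.

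**Figure D2:**
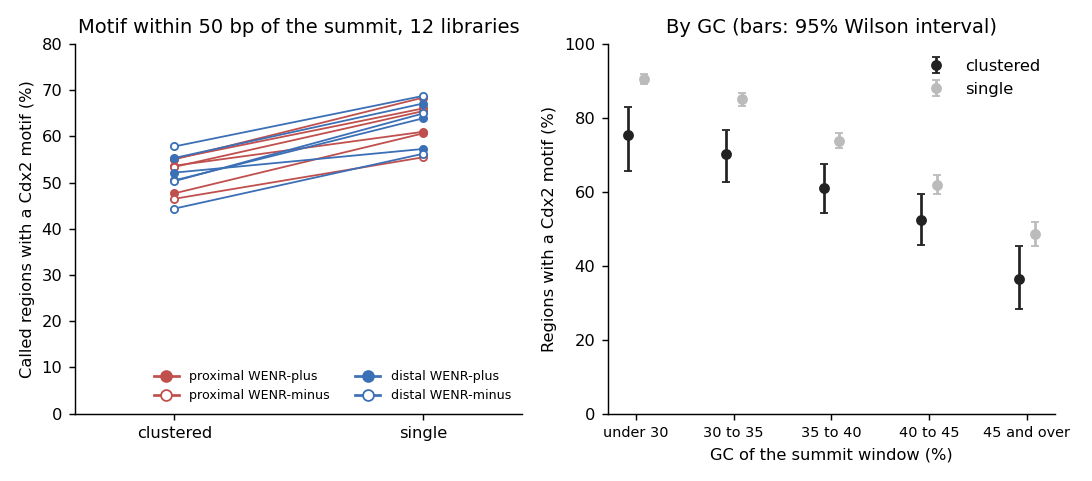
Left, share of called regions with a Cdx2 motif within 50 bp of the summit, for clustered and single regions of the same library joined by a line (12 libraries, colour by site, filled for WENR-plus). Right, the share at the median summit by GC of the summit window, with 95% Wilson intervals. The clustered value was lower in each of the 12 libraries and in each GC range.

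The words of other factors differ in length and number from those of Cdx2, so shares are not compared between factors. GATA words (AGATAA and the word TGATAA) were found in 17.6% of clustered and 18.2% of single regions, AP-1 words (TGANTCA) in 10.3% and 9.88%, and TCF/LEF words (CTTTGAT), which Wnt effectors bind, in 2.67% and 2.98%. Forkhead words (TGTTTAC and the word TGTTTGC) were found in 4.96% and 5.76%. For HNF4, a nuclear receptor, the clustered value was the lower one and the intervals did not overlap. HNF4 words (CAAAGTCCA and the word CAAAGGTCA) were found in 2.67% (interval 1.75 to 4.05) against 4.92% (4.46 to 5.43). In windows 1000 bp from clustered and single regions, GATA words were found in 12.8% and 12.6% and AP-1 words in 4.01% and 3.35%. TCF/LEF words were found there in 2.42% and 1.82%, forkhead words in 3.24% and 3.73% and HNF4 words in 0.445% and 0.198%. Both strands were searched, no test was run on these words, and a word in a window is not proof of a bound site.

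The rank of clustered and single regions differed by less than the spread between lines. The mean fold percentile of the called regions was 62.3 ± 6.11 (SD, n = 6 lines) for clustered and 61.7 ± 7.49 for single regions. The difference of 0.61 points (SD 2.50, from -3.57 to 2.98) was positive in 4 of 6 lines, with p = 0.594 in the two-sided exact sign-flip permutation test. With regions called in at least 4 libraries the difference was 2.82 (p = 0.0312, exact test), and with at least 9 it was -2.26. Its direction changed with this limit and with other settings, and the cause was not tested. Set against pairs the difference was -0.96 (p = 0.0312, exact test), negative in 6 of 6 lines. These tests treat the 6 lines as separate, although they came from 3 mice. A larger share of clustered than of single regions was called in all 12 libraries, 185 (23.5%) against 14.3%, and a smaller share in exactly 6, 17.7% against 26.1%. The share called in all 12 was larger for clustered regions in each GC range below 45%, with 15.1% against 4.65% below 30% GC. At 45% GC and above the order was the reverse, 16.9% against 19.1%. The number of calls was part of the rule. Clustered regions were also wider, with a median of 696 bp against 625 bp.

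In annotation, 56.9% of the clustered regions were intergenic, 41.5% lay in introns and 1.65% in exons. Of the chains, 140 overlapped no protein-coding gene, 89 overlapped 1 and 3 overlapped more. A start-proximal Cdx2 region lay inside the span of 7 chains. Fewer clustered than single regions lay more than 100 kb from a protein-coding start, 21.1% against 31.4%. Chromosome 19 had the largest share of its regions in chains among the autosomes, 14.8%, and chromosome 7 the smallest, 3.46%.

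The genes next to the chains included regulators of the intestinal epithelium. Of all 21938 protein-coding genes, 443 (2.02%) had a clustered summit within 100 kb of a start, while 47.6% had any of the 9949 regions there. For a list of 38 intestinal transcription factors the count was 4. Pparg, a lipid-sensing nuclear receptor, had 7 clustered summits in 2 chains, and Hnf4a and Tcf7l2, a Wnt effector, had 4 each. Of 29 stem cell and Wnt genes, 3 had clustered summits, namely Ephb3, an ephrin receptor of crypt positioning, Lrig1, a stem cell marker and inhibitor of EGF receptors, and Rnf43, which lowers Wnt receptor levels. Each had 3 summits. Of 24 secretory genes, Clca1, a goblet cell product, had 6 and Atoh1, the factor that sets the secretory fate, had 5. Of 30 enterocyte differentiation genes only Slc9a3, a sodium-proton exchanger, had any, with 3. None of the 23 adhesion and polarity, 24 neuronal, 20 muscle and heart or 22 immune genes had one. Any of the 9949 regions lay within 100 kb for 76.3% of intestinal factors and 62.1% of stem cell and Wnt genes. The share was 54.2% for secretory, 83.3% for enterocyte and 73.9% for adhesion genes, and 37.5%, 35% and 59.1% for neuronal, muscle and immune genes. Of genes with any such region, 13.8%, 16.7%, 15.4% and 4% of the first 4 lists had a clustered summit, against 4.24% of all genes. These lists were chosen with earlier results of these data known and were not tested, and the counts for single lists are small.

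Calls near these genes are set beside those over all clustered regions, 89.6% in proximal and 63.2% in distal lines. No gene was tested, and list length moved with the site. The 5 clustered regions near Atoh1 received 29 of 30 possible calls in proximal and 12 of 30 in distal organoids. The 3 in Rnf43 received 18 of 18 and 8 of 18, and the 7 near Pparg 38 and 28 of 42. Near Hnf4a the numbers were close, with 23 and 21 of 24, as they were for Tcf7l2, with 18 and 15 of 24. The region near Ephb3 of highest rank reached a mean fold percentile of 99.3, and that near Clca1 97.9.

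Over all chains more calls came from proximal than from distal organoids. The 3 proximal lines called 89.6% ± 6.34 (SD, n = 3) of the clustered regions and the 3 distal lines 63.2% ± 5.22. The groups did not overlap, at 85.4% to 96.9% against 58.4% to 68.8%, a difference of 26.4 points. Calls chose the regions, so call shares are described without a test. List length moved with the site, since proximal lists held 11409 to 42192 peaks and distal lists 5608 to 21040. With every list limited to the 5608 peaks of highest fold, 95 clustered regions were left and the difference was 2.81 points. Single regions were also called more often in proximal lines, at 65.2% to 96.8% against 39.8% to 67.7% in distal lines. The share of clustered minus that of single regions was 5.39 ± 12.9 points in proximal and 6.33 ± 11.9 in distal lines, a difference of -0.94.

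**Figure D3:**
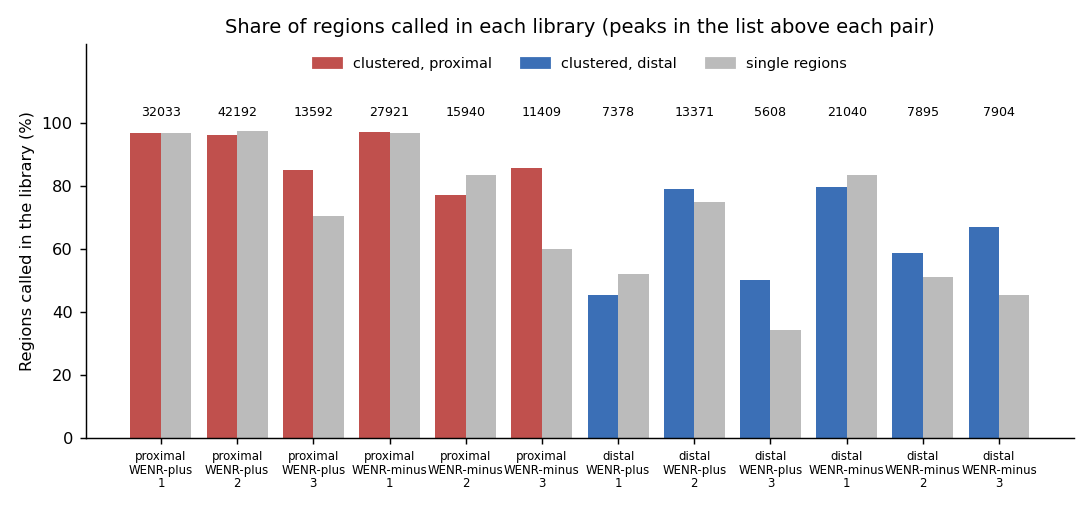
Share of the 786 clustered regions (red proximal, blue distal) and of the 7557 single regions (grey) called in each of the 12 libraries, with the number of peaks of the list above each pair. Clustered regions exceeded single ones by 14.8 to 25.5 points in the 4 libraries of replicate 3 and by at most 7.44 points in the others.

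The excess of clustered over single regions followed the replicate number. In the 4 libraries of replicate 3 it was 14.8 and 25.5 points in proximal and 15.7 and 21.4 points in distal organoids, WENR-plus first. In the 8 libraries of replicates 1 and 2 it ran from -6.86 to 7.44 points. The replicate 3 libraries stood apart in AT-rich sequence. They called 24.4% of the single regions with under 30% GC, where replicate 1 called 87.1% and replicate 2 79.3%, but 73.9% of those with at least 45% GC, where the others called 76.5% and 71.7%. The clustered regions of replicate 3 exceeded its single regions by 30.4 points under 30% GC, 22.4 between 30% and 35%, 14.9 between 35% and 40%, 8.05 between 40% and 45%, and -0.999 at 45% and above. Whether a number marks a mouse, a day or both is not given by the labels. Without repeated sequence the overall excess in replicate 3 was 20.7 points.

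Calls that separated the sites made up like shares of clustered and of all regions. In all 6 proximal and at most 1 distal library, 67 clustered regions (8.52%) were called, against 8.8% of all 9949 regions. The reverse held for 4 clustered regions (0.509%), against 0.432%. For the media, 1 clustered region was called in all 6 WENR-plus and at most 1 WENR-minus library, against 0.201% of all regions, and 1 in the reverse pattern, against 0.0503%. More proximal than distal calls were found for 63.9% of clustered and 70.01% of single regions. By chain, 207 chains had more proximal calls, 12 more distal calls and 13 equal numbers. A chain sums the calls of at least 3 regions, so these counts cannot be set beside the shares of regions. The chains at either end, chosen after their values were seen, included those nearest Cited2 with 18 proximal and 1 distal call, Arid5b with 18 and 2, and Cftr, the chloride channel of cystic fibrosis, with 18 and 3. At the other end were a chain near Olfr165 with 7 and 18, in which 2 of 3 regions were of repeated sequence, one near Klf12 with 12 and 22 and one near Thbs4 with 16 and 23. List length moved with these counts too.

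The share of clustered regions called overlapped between media. WENR-plus libraries called 75.4% ± 22.6 (SD, n = 6) and WENR-minus libraries 77.4% ± 13.6. The paired difference of -2.08 points (SD 21.0) ran from -34.4 to 20.2 over the lines and was negative in 4 of 6 lines. Set against single regions the difference was -3.05 points (SD 5.34, negative in 5 of 6 lines). The fold percentile of clustered minus single regions differed by -1.03 points between media (p = 0.5, exact sign-flip test) and by -1.29 points between sites (p = 0.6, exact permutation test). Neighbouring regions of a chain shared a mean of 69.6% of the libraries that called either one over 554 neighbour pairs, and neighbouring single regions up to 100 kb apart 66.2% over 2342 pairs. Clustered regions were called in more libraries, a mean of 9.17 against 8.46 for single regions. Calls chose the regions, so these shares are a description and were not tested.

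For the strength of individual regions of any class, the fold of the strongest peak in each library was compared with limma. The fit used the 2079 regions called in all 12 libraries, start-proximal regions included, and 185 of them were clustered. These 185 passed through calls in every group, so they leave out regions absent from any library. Between sites in WENR-plus, 3 of the 185 (1.62%) passed an adjusted p of 0.05, against 2.79% of all regions tested. In WENR-minus 2 did (1.08%), against 1.54%. Between media in distal organoids 1 did (0.541%), against 0.818%. In proximal organoids 0 of 185 did, against 0% of all (0 of 2079), while 14 clustered and 116 of all regions had an unadjusted p under 0.05. The log2 differences of the 185 regions between sites had a median of -0.11 in WENR-plus and -0.07 in WENR-minus, beside -0.02 and -0.02 for all regions tested. Those between media were 0.01 in proximal and 0.04 in distal organoids. The medium difference itself did not pass the limma threshold between sites for any of the 2079 regions, of which 89 had an unadjusted p under 0.05.

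The count depended on how the lists were scaled. Without normalisation the median log2 difference between sites over all regions moved to 0.46 in WENR-plus and 0.30 in WENR-minus. The clustered regions past the threshold were then 25, 24 of them higher in proximal, and 12, all higher in proximal. With median centring they were 7 (4 higher, 3 lower) and 5 (3 higher, 2 lower). For all regions in WENR-plus the split was 39 higher and 19 lower in proximal in the quantile-normalised fit, 68 and 61 with median centring and 385 and 3 without normalisation. With the replicate number as a block, 9 clustered regions passed between sites in WENR-plus (4 higher and 5 lower in proximal) and 6 in WENR-minus (3 higher and 3 lower). With the line as a block, 4 clustered regions differed between media in distal organoids, in place of 1. Leaving out replicate 1 left 0 clustered regions in each comparison, leaving out replicate 2 likewise, and leaving out replicate 3 left 2 between sites in WENR-minus and 0 elsewhere.

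The chain past the 3′ end of Hnf4a, a nuclear receptor of enterocytes, held the 1 clustered region past the threshold and higher in distal organoids in the fit without a block. Its regions lay 24.5 to 43.8 kb from the nearest Hnf4a start, and those further along were nearer to the start of Ttpal, a tocopherol transfer protein-like gene. Region 3, chr2:163583565-163584529, the one printed above without a motif, had normalised folds of 4.21, 5.65 and 5.49 in proximal WENR-plus and 10.5, 9.87 and 17.2 in distal WENR-plus organoids. The log2 difference, proximal minus distal, was -1.26 (SE 0.256, adjusted p = 0.0251, limma). In WENR-minus the values were 5.21, 5.70 and 6.65 against 8.90, 14.3 and 11.9, with a log2 difference of -0.98 and an adjusted p of 0.0606. The groups did not overlap in either medium. The neighbouring region 2, 2750 bp away, had 11.2, 10.3 and 15.4 in proximal and 7.65, 15.8 and 14.3 in distal WENR-plus organoids. Its sites overlapped, with a log2 difference of 0.01 (SE 0.277, adjusted p = 0.985). The difference between these neighbours was not tested.

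**Figure D4:**
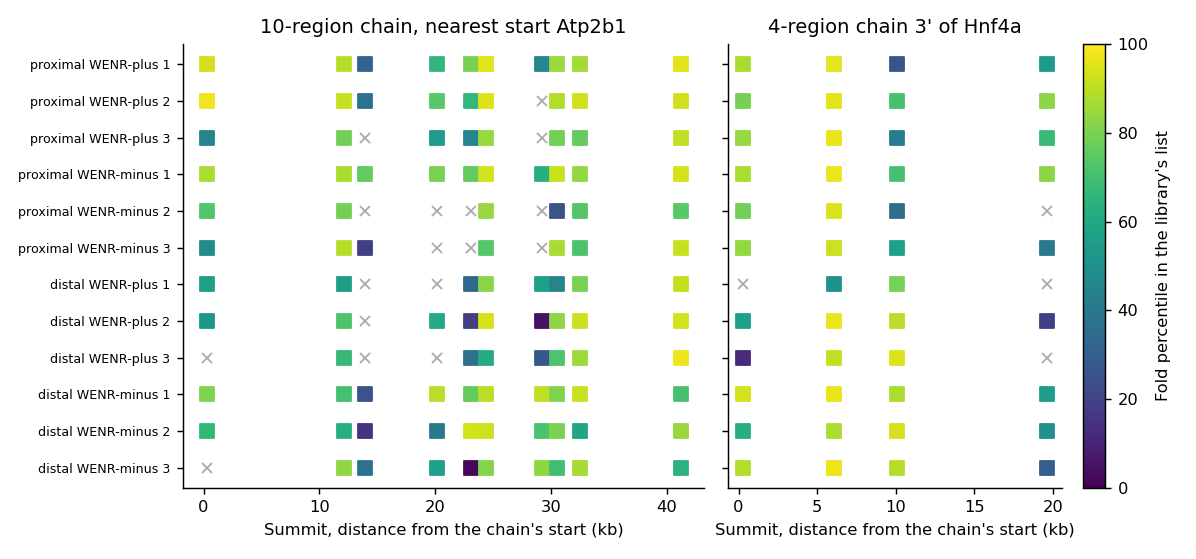
Fold percentile (colour, 0 to 100) of each region of 2 chains in the 12 libraries (rows), against the distance of the summit from the start of the chain in kb, with a cross where the library had no peak. Left, the chain with 10 regions, in which 5 regions had a peak in every library. Right, the chain past the 3′ end of Hnf4a, in which the region about 10 kb from the start ranked higher in the distal libraries.

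The other regions past the threshold between sites in that fit were higher in proximal organoids. One at chr5:146939203-146940643, 8.6 kb from the Gtf3a start and part of the chain of 5 regions named above, had normalised folds of 21.1, 16.8 and 24.1 in proximal and 6.03, 9.28 and 10.2 in distal WENR-plus organoids. The groups did not overlap (log2 difference 1.30, SE 0.277, adjusted p = 0.0273). One near the predicted gene Gm21119 had 24.6, 21.8 and 16.02 against 10.2, 6.94 and 8.68 (1.27, SE 0.290, adjusted p = 0.0325), in sequence whose 31-base words occurred a median of 23 times in the genome. In WENR-minus a region 211 kb from Cntnap5b had 14.7, 12.0 and 13.3 against 5.03, 6.84 and 5.63 (1.20, SE 0.205, adjusted p = 0.0219), and its words occurred a median of 62 times. A region with 4 motifs in an intron at chr13:32333488-32334515, 4.5 kb from a start of Gmds, an enzyme of GDP-fucose synthesis, had 14.5, 15.1 and 19.8 against 7.07, 9.40 and 6.49 (1.11, SE 0.221, adjusted p = 0.0279). All these adjusted values are from limma.

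A region 286.4 kb from Klf12, a Krüppel-like transcription factor, was the one that passed between media. In distal organoids its normalised folds were 15.8, 12.1 and 20.3 in WENR-plus and 6.82, 6.84 and 8.64 in WENR-minus, with a log2 difference of 1.09 (SE 0.229, adjusted p = 0.0385, limma). In proximal organoids they were 8.24, 8.86 and 10.5 against 6.75, 5.24 and 5.62. The media did not overlap at either site, and the difference of this change between sites did not pass. The region belonged to the chain near Klf12 with more distal than proximal calls.

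**Figure D5:**
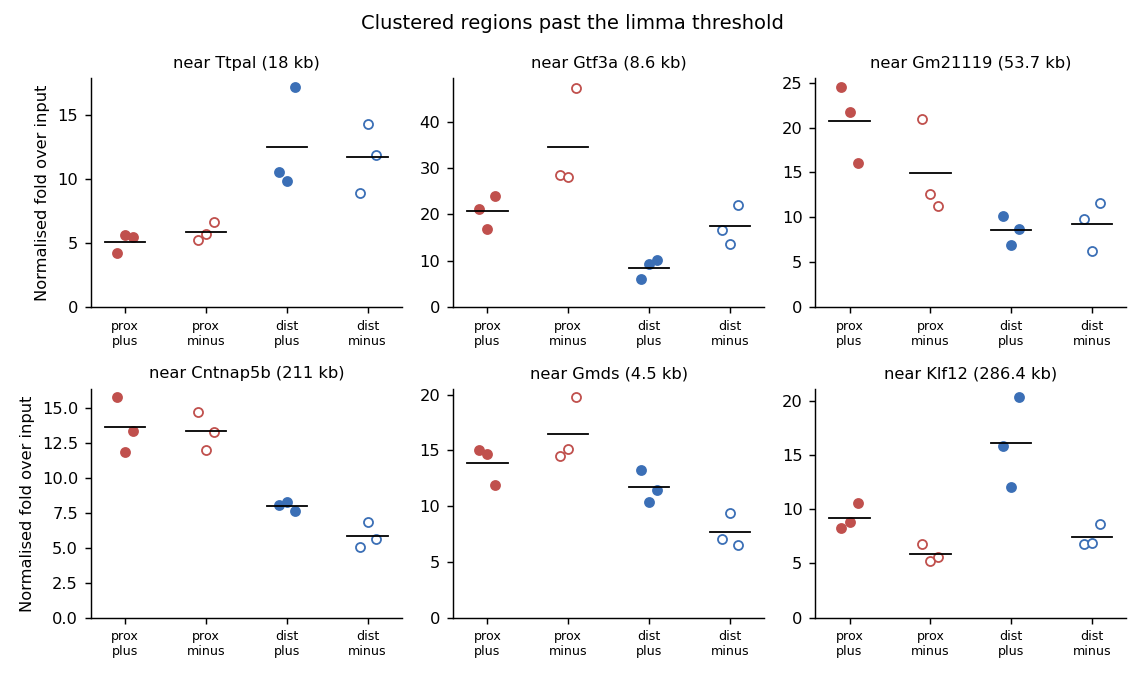
Normalised fold over input of the 6 clustered regions past the limma threshold, by group, with 1 point per library, the group mean as a line, red for proximal, blue for distal and filled for WENR-plus. Panels are named by the nearest protein-coding start. The region nearest Ttpal, in the Hnf4a chain, lay higher in distal organoids, and that near Klf12 lay higher in WENR-plus.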

How the data were processed

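Cdx2 ChIPmentation libraries, in which a transposase adds adapters to the precipitated chromatin, were analysed for 12 samples, and the 12 input libraries were not analysed here. The versions are those of the submitters' processing notes. The study's supplement lists other versions of Bowtie2 and SAMtools. Per both sources, the authors trimmed reads (Trimmomatic 0.39), aligned them to mm10 (Bowtie2 2.4.5), removed duplicates (SAMtools 1.13) and called peaks per library against the matched input (MACS2 2.2.7.1, q-value 0.01). The deposited fold is a ratio of the summit pileup to the local background. The −log10 q was deposited by the authors with each peak and used as a filter and for ranks. The deposited −log10 p and the score deposited by the authors, a multiple of −log10 q, were not used. The lists hold no read counts, so list length is given, which is not a measure of depth alone. The study's supplement states shares of reads in peaks that also differed between libraries. The library totals stated in the study's supplement were not used here, and intervals cover counting error only.

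Peaks that shared at least 1 bp were merged on chromosomes 1 to 19, X and Y, with the strongest peak of a library standing for it. Start sites were those of GENCODE vM21. The regions, chains, gene lists and tests were chosen with earlier results of these data known. Media of a line were averaged for tests over lines. Exact tests enumerated all assignments. limma 3.58.1 (R 4.3.3) was fitted to log2 fold, quantile-normalised between libraries, with 4 group means and Benjamini-Hochberg adjustment, and was tested on simulated data. The study compared read counts, which was not done here. Named chains were the 10 with the most regions, and named genes those of the lists with a clustered summit within 100 kb, at most 3 per list, and the 3 regions of largest log2 difference past the limma threshold per comparison. Results for 1 listed gene and 1 further motif are not reported here. Repeated sequence was a median above 1 copy over the 31-base words of the 201 bp around the summit. Whether p-values reflect mice or cultures depends on the replicate numbers, which the labels call biological replicates. The media of a site and number were taken as cultures of the same organoids. The correlation of their deviations from the group means was 0.132, 0.389 and 0.557 in proximal and 0.339, 0.0081 and 0.371 in distal organoids. Python 3.11.15 was used for all other steps.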

Additional observations from a re-analysis of the deposited data

Results flagged for a closer look

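The difference in motif share between clustered and single regions changed little with the medium in 5 of 6 lines and more in 1. WENR-plus minus WENR-minus, this difference moved by 6.74 percentage points in the distal line of replicate 3, and by -0.84 to 1.63 points in the other lines. The line was marked because its distance from the next value exceeded the limit of Dixon's test for 6 values, a limit that chance passes in about 1 of 20 groups. In that line the share of clustered regions with a motif was 52.2% in WENR-plus and 44.4% in WENR-minus organoids, and the share of single regions was 57.3% and 56.2%. The WENR-plus list of this line was the shortest, with 5608 peaks.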

How the results depend on the processing

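The number of clustered regions depended on the rule. It was 786 as described, 321 with gaps of at most 5 kb, 1221 with gaps of at most 20 kb, 1793 with calls in at least 4 libraries, 218 with at least 9, 426 with a −log10 q of at least 5 and 95 with lists of equal length, since fewer or more regions enter the chains. The lower motif share of clustered regions kept its direction in all 17 alternatives, from -12.2 to -4.61 points, and passed the threshold except where a replicate number was left out, with -10.7 to -9.82 points over 4 lines that cannot go below p = 0.125 in the exact test, and where the lines were averaged by replicate number, an alternative chosen after seeing the data, with -11.1 points over 3 values (p = 0.25, exact test, the smallest they allow).

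The difference in fold percentile between clustered and single regions was 2.82 with at least 4 libraries, but -2.26 with at least 9, -0.91 with a −log10 q of at least 5, -0.51 in regions called in all libraries and -0.96 against pairs in place of single regions, where it was negative in 6 of 6 lines and passed the threshold in that direction (p = 0.0312, exact sign-flip test). Its difference between media turned to 0.82 with a −log10 q of at least 5, 1.75 with lists of equal length and 0.64 in regions called in all libraries, and its difference between sites to 0.46 against pairs. The causes were not tested, and none of these differences between media or sites passed the threshold. Leaving out a replicate number gave -2.62 to 0.60 for the sites and -1.74 to 0.49 for the media. It gave -5.54 to 5.24 points for the difference between sites in the call share of clustered minus single regions, and -13.3 to 5.42 points for the difference between media in the call share of clustered regions.

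Clustered regions past the limma threshold between sites numbered 3 in WENR-plus and 2 in WENR-minus. They numbered 7 and 5 with median centring, 25 and 12 without normalisation, and 0 and 1 with a −log10 q of at least 5, where 105 clustered regions were tested. In WENR-minus the number was 0 with gaps of at most 5 kb and 4 without repeated sequence, an alternative chosen after seeing the data. Between media in distal organoids the number was 1, and it was 0 with median centring, 0 without normalisation, 0 with a −log10 q of at least 5 and 3 without repeated sequence. Leaving out a replicate number gave 0 between sites in WENR-plus, 0 to 2 in WENR-minus and 0 between media, with 2 libraries a group. The causes were not tested.

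The replicate block, with the number as an additive term, gave 9 clustered regions between sites in WENR-plus (4 higher and 5 lower in proximal), 6 in WENR-minus (3 higher and 3 lower) and 4 between media in distal organoids (1 higher and 3 lower in WENR-plus). The block by line also gave 4. Same-numbered libraries of different sites or media had deviations that correlated by 0.0081 to 0.557. Not every pair was above 0.1, so the numbers were not taken to pair the sites. Between sites the range was 0.12 to 0.249 for number 1, 0.0117 to 0.112 for number 2 and 0.416 to 0.469 for number 3. The distal media of number 2, at 0.0081, also missed this limit but stayed paired. The study puts the largest source of variation in Cdx2 binding down to the mouse. Pairing sites by number, or leaving the media unpaired, changed no other call. Leaving out chromosomes X and Y, also chosen after seeing the data, changed no call. Of all 185 alternative values, 137 kept their direction and their side of the threshold or, for counts, stayed within 1.5 times. Regions too weak for a call in 6 libraries could not be described.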
